A study of Homo sapiens with 8 samples.

Results

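The AIOLOS peak list of a chromatin immunoprecipitation sequencing (ChIP-seq) study in 697 cells, a human leukaemia line of the pre-B stage, was described peak by peak. Every peak deposited for the AIOLOS antibody was taken, which gave 38101 of the 159806 peaks in the 7 lists of the study. The libraries were 1 AIOLOS library, 1 library each for the partners MTA2, HDAC2, Mi2, IKAROS, OCAB and OCT2, and 1 input library, made from sonicated chromatin without antibody. All came from the same line, grown in RPMI-1640 medium with 10% fetal bovine serum, and the labels give no treatment or genotype that differs between libraries. The AIOLOS antibody was an Abcam product (ab139408). With 1 line and a single library for each antibody, replicates could not be compared, no difference between libraries was tested, and the specificity of the antibody was not tested.

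AIOLOS, encoded by IKZF3, is a zinc-finger transcription factor of the Ikaros family that is active in developing and mature lymphocytes. It binds DNA and pairs with IKAROS, its closest relative, through zinc fingers at the far end of the protein, and both are known to associate with NuRD. NuRD joins a nucleosome remodelling ATPase (Mi2), a histone deacetylase (HDAC2) and scaffold subunits such as MTA2. OCT2 is a lymphoid octamer-binding factor, and OCAB is the B-cell coactivator recruited to octamer sites.

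The AIOLOS library held 16.1 M tags, as recovered from the ratio of tags to height, and the input library 21.3 M. Peak height was the deposited normalized tag count, that is, tags of a peak for every 10 M tags sequenced. All but 1 of the 38101 peaks spanned 256 bp, and the exception spanned 141 bp. Each peak held at least 10 AIOLOS tags, at least 4.08-fold more than input and at least 4-fold more than its surroundings. These minima, and a highest p-value of 9.53e-11 over input, bound every value below. Intervals are 95% intervals that cover counting error only, since the amplified reads carry no molecular identifiers. Peaks of 1 library are not replicates.

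Most AIOLOS peaks were low, and a small number were very high. The lowest height was 6.22 tags per 10 M, the median was 23.7 (interval 23 to 23.7) and the highest was 4889.7. The middle of the list was narrow, with quartiles of 15.6 and 40.5. The 90th percentile lay at 71.6, the 99th at 212.9 and the 99.9th at 554.5. Only 1970 peaks (5.17%) exceeded 100 tags per 10 M, yet they held 26.1% of the summed height. Above 1000 tags per 10 M there were 13 peaks, with 2.13% of the summed height.

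When the list was cut into deciles by height, the median height was 10.6 in the lowest decile, 21.8 in the fifth and 102.1 in the highest. The lowest decile held 2.79% of the summed height and the highest decile 36.9%. The 381 peaks of the highest 1%, all at or above 212.9, held 10.8%. The 38 peaks of the highest 0.1%, all at or above 557.8, held 3.37%. The summed AIOLOS height was thus weighted to the upper deciles, with the highest 0.1% of peaks a small share of it.

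**Figure D1:**
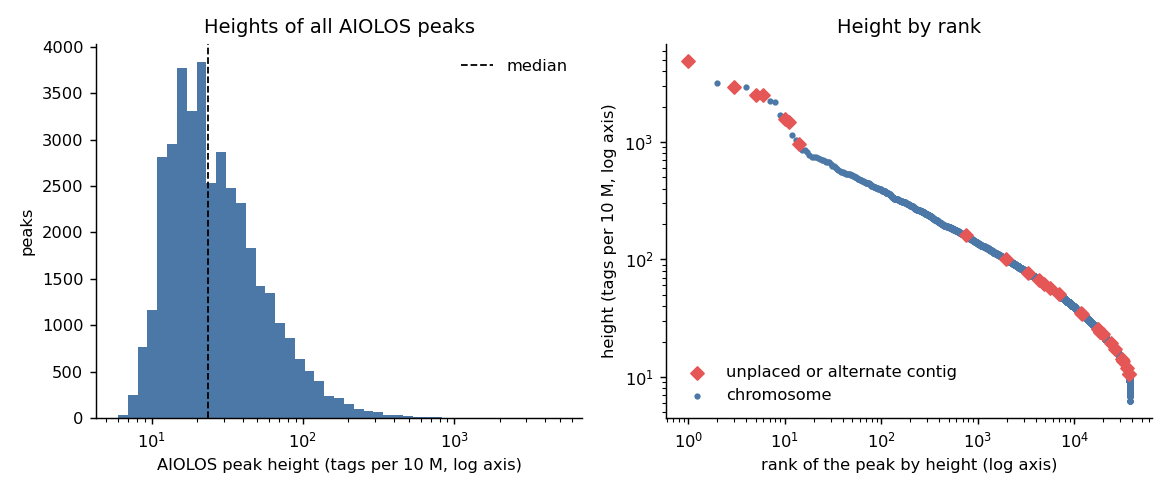
Left, number of AIOLOS peaks by height in tags per 10 M (log axis), with the median of 23.7 as a dashed line. Right, height of every peak against its rank (both axes log). Red diamonds are the 27 peaks on unplaced, unlocalized or alternate contigs, and blue points are peaks on chromosomes. Of the 11 highest peaks, 6 are diamonds.

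The extreme upper tail held many peaks on unplaced, unlocalized or alternate contigs of hg19. Of the 38101 peaks, 27 lay on such contigs, and they held 1.25% of the summed height. Of the 20 highest peaks 7 lay there, and so did 6 of the 11 highest. The highest, chr17_gl000205_random:87283-87539, had 7867 AIOLOS tags and 24 input tags, or a height of 4889.7 (Poisson interval 4789 to 5006). Its height was 1.55 times that of the second peak.

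A pair of further high peaks lay on the same contig within 2327 bp in all, with heights of 2941.9 and 2520.5. This triplet summed to 10352.1 tags per 10 M, the largest sum of any cluster of 3 or more peaks. Contig peaks carried more input as well: on the deposited scale the median control was 7.6 tags in contig peaks and 2.3 in peaks on chromosomes 1 to 22 and X. The means were 20.1 and 2.91; without the 1 contig peak of control 307.7 the contig mean was 9.07. The part of the higher input in these heights was not tested. Without contigs or chromosome Y, the highest 1% of peaks on chromosomes 1 to 22 and X held 9.85% of their summed height.

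On chromosomes, the highest peak was chr8:28747507-28747763, with 5068 AIOLOS tags and 9 input tags (height 3149.2, fold over input 744.86). Next came chr4:185886309-185886565, with 4710 AIOLOS tags and 5 input tags (height 2916.4). Chromosome 4 also held chr4:7865735-7865991, with 3614 AIOLOS tags and 3 input tags (height 2249.1). These 3 peaks stood far above their input in tag counts. Amplified copies of the same fragment cannot be told apart in these counts, as the reads carry no molecular identifiers.

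Chromosome 11 held a pair of peaks among the 20 highest that differed in input. The peak chr11:62609028-62609284 had 3488 AIOLOS tags and 74 input tags (height 2170.7, fold 62.35). The peak chr11:76155750-76156006 had 2701 AIOLOS tags and 12 input tags (height 1681.4, fold 297.73). The higher of the pair thus had the lower fold.

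Below these, chr14:97263435-97263691 had a height of 1145.4 and the most concentrated tags of the 20, with a focus ratio of 0.969. The peak chr19:44669049-44669305 had a height of 1043.3 and was the last above 1000. The other chromosomal peaks of the 20 were chr10:125919454-125919710, chr11:122542321-122542577, chr12:107167852-107168108, chr15:31195874-31196130, chr8:67340984-67341240 and chr16:87196610-87196866, with heights between 743.3 and 862.2. Of the 20, 9 had no other AIOLOS peak within 12.5 kb and 6 sat in clusters of 3 or more. These shares, 45% and 30%, were near the 41.2% and 31.9% of the whole list.

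AIOLOS tags exceeded input tags in every peak, and input was higher in higher peaks, mainly over the lower deciles. In the lowest decile the median was 17 AIOLOS tags and 0.8 input tags, with input scaled by the authors to the AIOLOS depth. the fifth decile had medians of 35 AIOLOS tags and 3 scaled input tags, and the highest decile had 164 and 3.8. Between the fifth decile and the highest, AIOLOS tags thus grew far more than input tags did. On the deposited scale 1 input tag counted as 0.756, and the median peak contained 3 input tags before scaling. Across all 38101 peaks, height and control had a Spearman rho of 0.45, and within the highest decile a rho of 0.09 (n = 3810 peaks of the same 2 libraries). Height and input thus went together over the listed peaks but only weakly within the highest decile. Low peaks over more input could not pass the limits on fold and p-value. The rho over all peaks is therefore not independent of these limits, and their part in it was not tested.

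Input was absent from 1864 AIOLOS peaks (4.89%), and these were mostly low peaks. They made up 16.4% of the lowest decile, 3.54% of the fifth and 1.34% of the highest. Their deposited fold is computed against a floor of 0.5 input tag. The highest deposited fold among the 20 highest peaks, 3671.97 at chr10:125919454-125919710, is such a case, with 1388 AIOLOS tags and no input tag. Against 3 input tags it was at least 612-fold higher than input. Of the 13 peaks over 1000-fold, 9 had no input tag.

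The fold over input was lowest not in the lowest peaks but just above them. Its median was 16.53 (interval 16.37 to 16.75) over all peaks. By decile from low to high the medians were 15.87, 10.14, 11.02, 10.58, 11.90, 13.89, 16.53, 19.84, 27.12 and 47.70. The lowest decile, whose peaks had the fewest input tags and the most zeros, stood above deciles 2 to 6. Every peak had to pass the limits on fold and p-value, so low peaks over more input are not in the list.

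**Figure D2:**
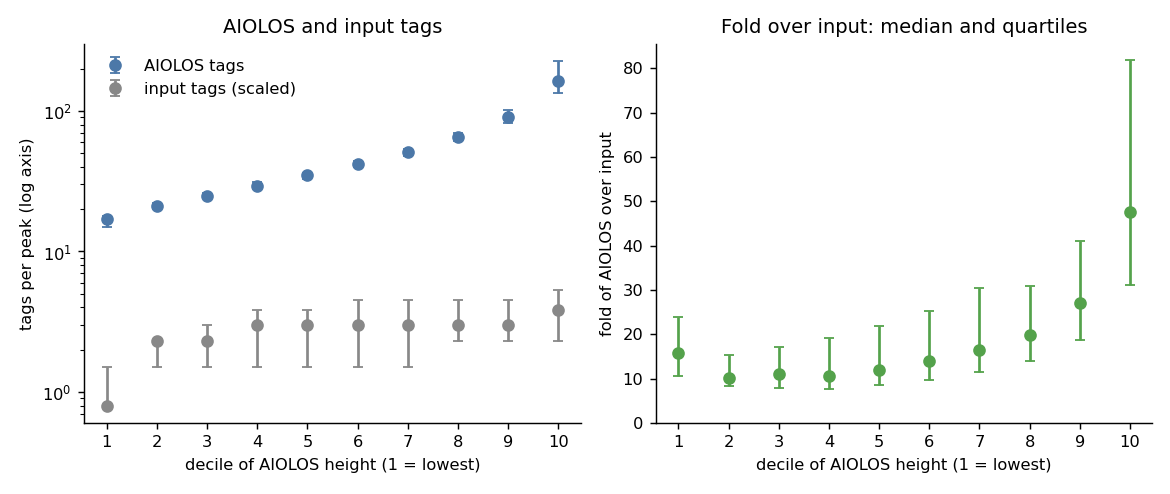
Left, median AIOLOS tags (blue, upper series) and scaled input tags (grey, lower series) per peak by decile of AIOLOS height, with bars to the quartiles on a log axis. Right, median fold over input by decile with bars to the quartiles; the median is 15.87 in decile 1, 10.14 in decile 2 and 47.7 in decile 10.

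High input was rare, with more than 10 input tags in 591 peaks (1.55%). The most lay at chrUn_gl000220:136302-136558, with 1565 AIOLOS tags and 407 input tags (height 967.4, fold 5.09). Although it was the fourteenth highest peak of the list, it had the smallest fold of the 20 highest.

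Chromosome 17 held the next pair. The peak chr17:41400125-41400381 had 466 AIOLOS tags and 137 input tags (height 287.6, fold 4.5). The peak chr17:41466053-41466309 had 430 AIOLOS tags and 78 input tags (height 267.7, fold 7.29). Both were in the highest 1% by height, and both overlapped an IKAROS peak and no other partner. After these came the chromosome 11 peak above with 74 input tags, and chr7_gl000195_random:31755-32011 with 4026 AIOLOS tags and 31 input tags.

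The focus ratio, the fraction of tags that lie as they would around a single centre, was similar from low to high peaks. It ran from 0.379 to 0.992, with a median of 0.794 (interval 0.793 to 0.795) and quartiles of 0.724 and 0.857. The median was 0.783 in the lowest decile, 0.787 in the fifth and 0.821 in the highest, a difference of 0.038 between the highest and the lowest decile. In the highest 1% it was 0.862 and in the highest 0.1% it was 0.872. The rise thus came at the top of the list, and over all peaks height and focus ratio had a rho of 0.08 (n = 38101).

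Poorly focused peaks were few and low. A focus ratio under 0.6 was found in 1110 peaks (2.91%), of which 21.1% were in the lowest decile and 2.52% in the highest. A focus ratio of at least 0.9 was found in 4497 peaks (11.8%), and these were spread evenly, with 11.6% of them in the lowest decile and 11.3% in the highest. Sharp AIOLOS peaks thus occurred at all heights.

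Focus had a higher rho with the fold over the surroundings than with height. That rho was 0.36 over all peaks, 0.60 in the highest decile and 0.74 in the highest 1% (n = 38101, 3810 and 381). Peaks with a neighbour under 1000 bp away had a median focus ratio of 0.767, those with the nearest neighbour 5 to 12.5 kb away 0.794, and those over 100000 bp from any other 0.824. The median fold over the surroundings in the same 3 classes was 8.3, 15.26 and 20.34. The surroundings, a region of 10000 bp in the HDAC2 header and not stated for AIOLOS, can include the tags of a near neighbour, so the last measure is not independent of crowding. The median folds over input in these classes were 15.54, 17.2 and 17.86. In the class that starts at 12.5 kb (n = 10728), however, the median was 15.87. Crowded AIOLOS peaks were thus less focused, whereas their fold over input followed no steady order with distance.

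The 5 least focused peaks of the highest decile had heights from 75.3 to 90.9, near the lower edge of that decile. The least focused was chr1:152933667-152933923, with a focus ratio of 0.511 and 126 AIOLOS tags over 3 input tags. Then came chr19:47730639-47730895 (0.538), chr5:140887395-140887651 (0.552), chr9:7879713-7879969 (0.561) and chr1:203294414-203294670 (0.565). The peak on chromosome 19 overlapped a Mi2 peak alone and that on chromosome 5 an MTA2 peak alone. The rest of the 5 overlapped an IKAROS peak, as did 97.9% of the highest decile.

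**Figure D3:**
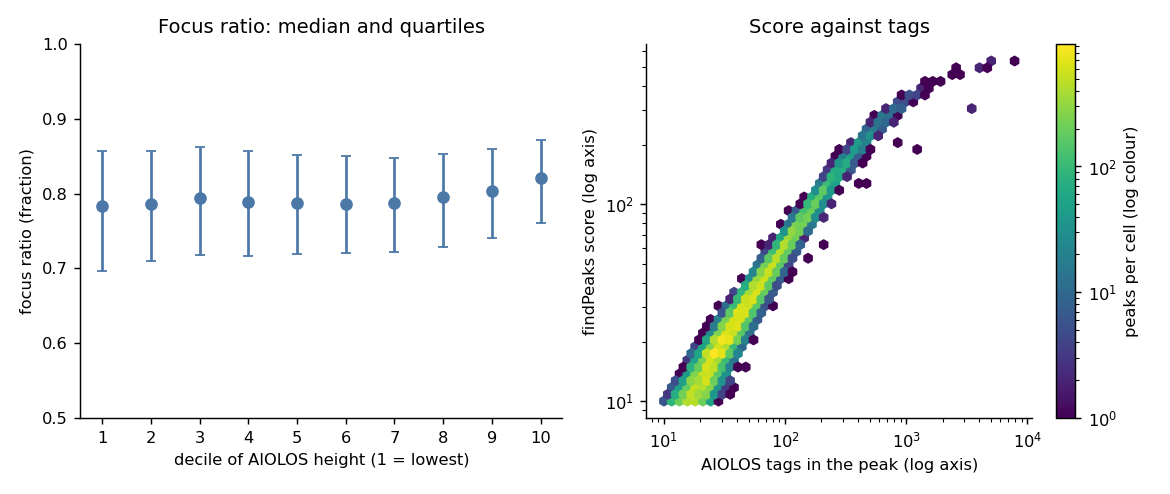
Left, median focus ratio by decile of AIOLOS height with bars to the quartiles; the axis starts at 0.5, and the median is 0.783 in decile 1 and 0.821 in decile 10. Right, findPeaks score against AIOLOS tags per peak (both axes log), with colour for the number of peaks in each cell; the score levels off near its maximum of 535.

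The findPeaks score ranked AIOLOS peaks almost as height did, but it did not keep pace with the tags of the highest. It ran from 10 to 535 with a median of 24, and its rho with height was 0.98 over all 38101 peaks. The score per tag had a median of 0.69 in the lowest decile, 0.64 in the fifth, 0.56 in the highest, 0.45 in the highest 1% and 0.30 in the highest 0.1%. At the highest peak of the list a score of 517 stood against 7867 tags, or 0.0657 per tag. A ranking by score therefore compresses the tail that a ranking by height spreads out.

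The 5 highest scores, 535, 517, 513, 509 and 506, belonged to peaks with heights between 1561.8 and 4889.7. Of these, 4 lay on contigs, 3 of them in the triplet. Their clonal fold, HOMER's comparison of the tag number of a peak with its distinct tag positions, was between 0.48 and 0.51, close to the minimum of the list. Over the highest 1% of peaks, score and clonal fold had a rho of -0.83 (n = 381), and the list median of the clonal fold was 0.92. The product of score and clonal fold lay between 143.1 and 261 in the highest 1%. In the 20 highest peaks it lay between 244.48 and 261. Score and clonal fold are thus nearly tied by arithmetic there, and their rho is not a separate result. Among the 20 highest, chr4:7865735-7865991 had a score of 307 with a clonal fold of 0.84, and chr16:87196610-87196866 a score of 198 with a clonal fold of 1.28. The peak chr11:62609028-62609284 had a score of 300 with a clonal fold of 0.87. These 3 scores were the lowest of the 20.

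AIOLOS peaks lay at a wide range of distances from each other, with a closely spaced minority. Among 38068 pairs of adjacent peaks the shortest distance between centres was 389 bp and the median was 21782 bp, with quartiles of 6851 and 62482 bp. Under 1000 bp lay 4.89% of pairs, 5.82% at 1000 to 2000 bp and 8.70% at 2000 to 5000 bp. A further 17.8% lay at 5 to 12.5 kb, and 16.4% over 100000 bp apart. No pair was closer than 389 bp in a list of 256-bp peaks, so nearer summits, if any, were not separate entries.

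High peaks had nearer neighbours than low ones, up to a point. The median distance to the nearest AIOLOS peak was 8741 bp over the list. It was 14909 bp in the lowest decile, 6513 bp in the seventh and 7898 bp in the highest decile. In the highest 1% it was 11841 bp. The nearest neighbours were therefore closest in the upper middle of the list and not at its top.

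Adjacent peaks resembled each other in height when they were close. Heights of adjacent peaks under 1000 bp apart had a rho of 0.51 (n = 1860 pairs). The rho was 0.25 at 1 to 12.5 kb (n = 12297), 0.05 from there to 100000 bp (n = 17684) and 0.02 beyond (n = 6227). These pairs share 1 library.

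When peaks with centres no more than 12.5 kb apart were linked, 22398 peaks (58.8%, Wilson interval 58.3 to 59.3) had at least 1 neighbour. Clusters of 3 or more numbered 3116 and held 12148 peaks, or 31.9% of the list (interval 31.4 to 32.4), and 35.4% of the summed height. Their median length was 13621 bp. The share of peaks in such clusters was 20.8% in the lowest decile, 30.5% in the fifth, 39.2% in the highest decile and 29.1% in the highest 1%. These shares depend on the link distance: with 5000 bp 35.8% of peaks had a neighbour and 8.05% were in clusters of 3 or more, and with 25000 bp 54.1% were in such clusters.

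Peaks in larger clusters were higher. The median height was 20.5 tags per 10 M for 15703 lone peaks, 23.7 in pairs, 26.1 in clusters of 3 or 4, 30.5 in clusters of 5 to 9 and 33.0 in the 24 clusters of 10 or more. The median of peaks in clusters of 3 or more was 27.4, against 20.5 for lone peaks, a ratio of 1.34. Of the 272 peaks in clusters of 10 or more, 17.3% were in the highest decile, against 8.62% of lone peaks. The median fold over input hardly moved along the same order, at 16.31, 16.31, 16.67, 17.72 and 17.2.

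**Figure D4:**
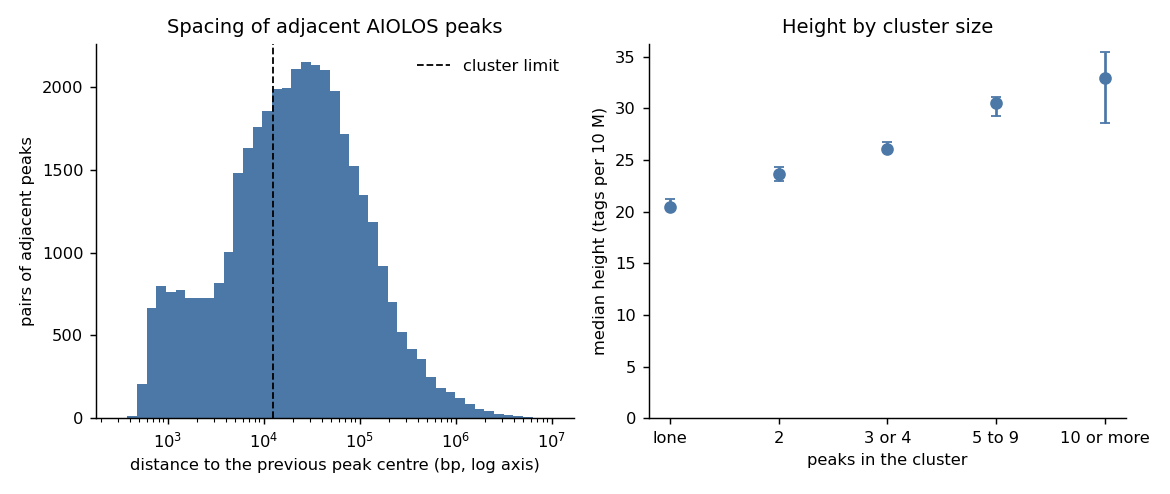
Left, distances between centres of adjacent AIOLOS peaks (bp, log axis), with the 12.5-kb link distance as a dashed line and a shoulder near 1000 bp left of the main mode. Right, median height with its 95% interval by cluster size; it is 20.5 tags per 10 M for lone peaks and 33.0 for clusters of 10 or more.

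The cluster with most AIOLOS peaks was chr17:75361779-75476171, with 20 peaks over 114393 bp. Its heights ran from 18.1 to 188.0 with a median of 79.4, over 3 times the list median of 23.7, and 11 of the 20 were in the highest decile. The distances between its neighbouring centres were 829 to 11974 bp, with a median of 5605 bp. No single peak dominated, since the highest held 10.2% of the summed height of 1846.8. Of its 20 peaks, 19 overlapped an IKAROS peak, 15 MTA2, 9 HDAC2, 5 OCT2, 4 Mi2 and 2 OCAB, and none overlapped all 6. Over the whole list the shares were 85.9%, 51.8%, 27.3%, 14.9%, 10.6% and 6.18% in that order. Over the highest decile they were 97.9%, 91.9%, 66.4%, 43.3%, 28.7% and 19.3%.

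Its 11 peaks in the highest decile had from 1 partner (height 107.7) to 5. Over the whole highest decile the mean was 3.47 partners. Those with 5 are given here. The peak chr17:75396661-75396917 had a height of 188.0, the highest of the 20. The peak chr17:75402055-75402311 had a height of 174.9 over a scaled control of 1.5 tags. Both overlapped IKAROS, MTA2, Mi2, HDAC2 and OCT2 peaks. At chr17:75437416-75437672 the height was 163.7 with a focus ratio of 0.636, and this peak overlapped both OCT2 and OCAB.

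The other clusters with many peaks were lower. A second cluster on that chromosome, chr17:1915090-1998575, held 15 peaks with a median height of 24.3, of which 13 overlapped IKAROS and 5 MTA2. The cluster chr1:226820773-226899825 held 14 peaks with a median height of 18.7, of which 8 overlapped IKAROS, 7 MTA2 and 6 OCT2. On chromosome 19, chr19:2266612-2332698 held 14 peaks with a median of 35.2, and chr19:45946786-46029756 held 12 with a median of 36.1. In the last of these 1 peak of height 396.5 held 45.6% of the sum, and all 12 overlapped IKAROS. Over the whole list 85.9% of peaks overlapped IKAROS, 51.8% MTA2 and 14.9% OCT2.

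By summed height, the contig triplet came first and chr11:62598885-62623690 second, with 4 peaks summing to 2238.5. In the chromosome 11 cluster 97.0% of the sum came from 1 peak, and the lowest had a height of 12.4. The 20-peak cluster was the third by sum. After it came chr8:130561458-130616284, with 8 peaks between 15.6 and 694.1 summing to 1476.7, and chr1:230240417-230266560, with 7 peaks between 23.7 and 512.3 summing to 1474.2. All 8 and all 7 of these peaks overlapped IKAROS, against 85.9% of peaks over the whole list. Large sums thus arose from 1 dominant site in some clusters and from many sites in others.

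The other 6 lists were laid over AIOLOS peaks to ask how often each partner had a peak at the same place, an overlap of at least 1 bp. Over the whole list 85.9% of AIOLOS peaks overlapped an IKAROS peak, 51.8% MTA2, 27.3% HDAC2, 14.9% OCT2, 10.6% Mi2 and 6.18% OCAB. No partner was found at 9.57% and all 6 at 1.00%. Those lists differ in length, from 53948 IKAROS peaks to 4440 OCAB peaks, and in their calling limits, so the order of the partners was not compared.

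Each partner was found more often at higher AIOLOS peaks. IKAROS was at 68.7% of the lowest decile, 86.6% of the fifth and 97.9% of the highest decile, a difference of 29.2 percentage points between highest and lowest (Newcombe interval 27.6 to 30.7). The IKAROS share was thus near its ceiling in the upper deciles. MTA2, the scaffold subunit of NuRD, was at 21.9%, 44.1% and 91.9% of the same deciles, a difference of 70.1 points (68.4 to 71.6). HDAC2, a deacetylase of the complex, was at 6.93%, 20.4% and 66.4%, a difference of 59.5 points (57.7 to 61.1). Mi2, the remodelling ATPase, was at 4.12%, 6.98% and 28.7%, a difference of 24.6 points (23 to 26.2).

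Both octamer proteins were also found more often at higher AIOLOS peaks. OCT2 was at 4.22% of the lowest decile, 8.50% of the fifth and 43.3% of the highest, a difference of 39.1 points (37.3 to 40.7). OCAB was at 1.99%, 3.65% and 19.3%, a difference of 17.3 points (16.0 to 18.6). The share grew at all 9 steps between neighbouring deciles for 5 of the partners and at 8 of 9 for OCAB. Of the AIOLOS peaks with an OCAB peak, 31.2% were in the highest decile, and of those with an IKAROS peak 11.4%.

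**Figure D5:**
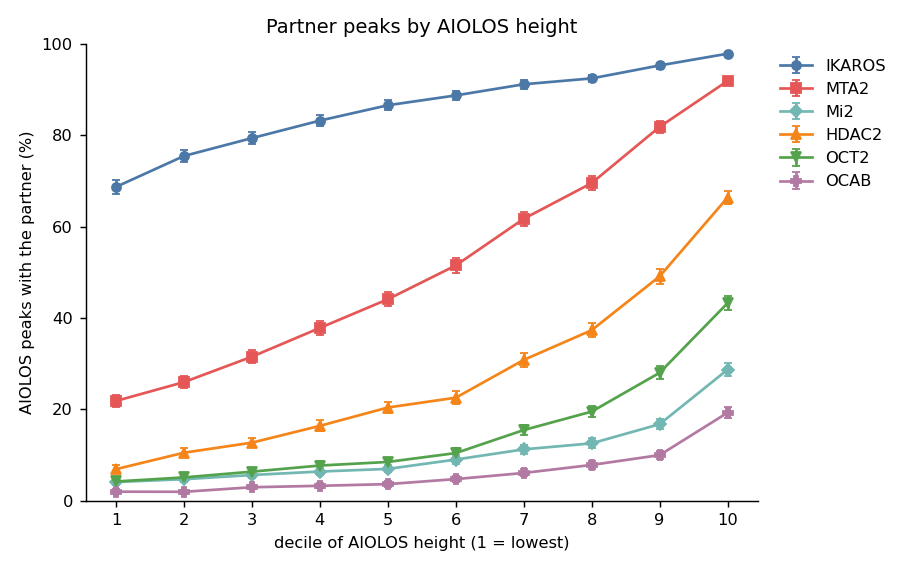
Share of AIOLOS peaks that overlap a peak of each of the other 6 lists, by decile of AIOLOS height (1 lowest, 10 highest), with 95% Wilson intervals for counting error. Every line is higher in decile 10 than in decile 1; for MTA2 the difference is 70.1 percentage points and for OCAB 17.3.

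The number of partners grew with AIOLOS height. An AIOLOS peak had on average 1.08 of the 6 partners in the lowest decile, 1.70 in the fifth and 3.47 in the highest. Without any partner were 988 peaks of the lowest decile (25.9%) and 23 of the highest (0.604%). Overlap with all 6 was seen at 1 peak of the lowest decile and 227 of the highest (5.96%). Grouped the other way, the median AIOLOS height was 14.9 at peaks with no partner, 25.5 with 2, 47.3 with 4 and 84.4 with all 6.

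The gradient was also seen among peaks with the same count of input tags, an alternative chosen after seeing the data. So small a count does not hold the underlying input constant. Among the 6594 AIOLOS peaks with exactly 3 input tags, cut into their own deciles, the differences between highest and lowest decile were 29.7 points (IKAROS), 68.6 (MTA2), 58.0 (HDAC2), 29.0 (Mi2), 40.5 (OCT2) and 16.8 (OCAB). By deciles of the fold over input instead of height, the differences were smaller, at 14.8 points for IKAROS and 38.5 for HDAC2. With each partner list limited to its 2000 highest peaks, they were 49.6 (IKAROS), 31.8 (MTA2), 28.5 (HDAC2), 12.9 (Mi2), 21.1 (OCT2) and 9.53 (OCAB). With centres within 100 bp in place of overlap, the Mi2 difference was 13.8.

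The extreme top of the AIOLOS list did not simply extend the gradient for every partner. In the highest 1% (381 peaks) Mi2 was at 50.1% and OCT2 at 49.1%. In the highest 0.1% (38 peaks) Mi2 was at 27 (71.1%, interval 55.2 to 83.0) and OCT2 at 9 (23.7%, interval 13.0 to 39.2). The OCT2 share of the highest 38 peaks thus lay below that of the highest 381, which include them, while MTA2 was at 36 and HDAC2 at 34 of them. The count of OCT2 was much the same without contigs: among the 38 highest peaks on chromosomes 1 to 22 and X, OCT2 was at 10 (26.3%, interval 15.0 to 42.0), Mi2 at 26, HDAC2 at 35, and IKAROS and MTA2 at all 38.

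Among the 20 highest peaks IKAROS, MTA2 and HDAC2 were each found at 18, Mi2 at 15, OCAB at 4 and OCT2 at 3. The same 4 partners, IKAROS, MTA2, Mi2 and HDAC2 without an octamer protein, were found at 13 of the 20, of which 4 lay on contigs. They marked all the chromosomal peaks of the 20 that had neither OCT2 nor OCAB, such as chr4:185886309-185886565, chr4:7865735-7865991, chr11:76155750-76156006, chr14:97263435-97263691 and chr19:44669049-44669305. The share of this exact combination over the whole list was not counted. Whether it is particular to the 20 highest peaks is therefore not known. OCT2 and OCAB were both present at chr11:62609028-62609284 and chr11:122542321-122542577, each with IKAROS, MTA2 and HDAC2 and without Mi2. The high-input peak chrUn_gl000220:136302-136558 overlapped an OCT2 peak and no other.

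Partner centres lay nearer the AIOLOS centre at higher AIOLOS peaks for most partners. Among overlapping pairs the median distance between IKAROS and AIOLOS centres was 46 bp in the lowest decile, 38 bp in the fifth and 19 bp in the highest. For MTA2 it was 54, 50 and 28 bp, and for HDAC2 81.5, 76 and 50 bp. Mi2 centres stayed far, at 95 bp in the lowest decile, 124 bp in the eighth and 85 bp in the highest, and came to 55 bp in the highest 1%. OCT2 centres lay at 69 bp in the lowest decile and 47 bp in the highest, and OCAB centres at 74 and 58 bp.

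A few AIOLOS peaks stood against the gradient. The highest with no partner was chr7_gl000195_random:31056-31312, with 2372 AIOLOS tags and 30 input tags (height 1467.9). It lay 699 bp from the peak of height 2504.3 on the same contig, which had 4 partners, and its focus ratio of 0.572 was the lowest of the 20 highest peaks. The next 4 without a partner were far lower: chr1:235491583-235491839 (height 151.9), chr20:61783162-61783418 (138.2), chr22:26132786-26133042 (135.7) and chr16:28041938-28042194 (125.1). The nearest AIOLOS peak to these 4 lay 551, 2038, 7689 and 659 bp away in that order. The median of this distance over the highest decile was 7898 bp.

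At the other end, the lowest AIOLOS peak with all 6 partners was chr18:8052206-8052462, with 15 AIOLOS tags and no input tag (height 9.34). The next were chr8:22925061-22925317 (height 13.7), chr1:27816968-27817224 (14.9), chr5:171155726-171155982 (18.1) and chr5:111189561-111189817 (18.1). Low AIOLOS height thus did not preclude overlap with all other lists, although it was rare.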

How the data were processed

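Per the labels' protocols, libraries were amplified over 15 cycles of PCR, selected at about 250 bp with adapters, and read on an Illumina HiSeq 2500. Reads were handled with HOMER 4.9.1, Bowtie2 2.3.2.2 and CASAVA 1.8.2 on build hg19, per the submitters' processing notes; for HDAC2 they name CASAVA 1.4. For the AIOLOS list, findPeaks settings are not given in these sources. The authors deposited 1 list per library, with no pooling recorded. Its columns hold the count of tags in each peak, a height signal in tags per 10 M, the input signal scaled to the AIOLOS depth, the deposited fold ratios over input, surroundings and clonal positions, their p-values, the focus ratio as a fraction, and the HOMER score. The deposited counts and signals are per peak. The partner lists enter by position, height and p-value over input. Scaled tags of the IKAROS and MTA2 lists were also used for the input depth.

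AIOLOS depth was computed as the median ratio of tags to height in 1267 peaks with at least 200 tags. Input depth was the mean of such medians from the IKAROS (3353 peaks) and MTA2 (221 peaks) lists, with tags scaled to the input. Input tags were recovered from AIOLOS tags divided by the deposited fold over input, rescaled by the ratio of these depths. Of the peaks, 99.997% came out whole within 0.05 tag. Deciles follow height with ties in deposited order. Intervals are Wilson for shares, Newcombe for differences, exact Poisson for a tag count and binomial order statistics for medians. No p-value between libraries was computed. The code was tested on 9639 simulated peaks and recovered all 6 checks. Python 3.11.15, numpy 2.4.6, pandas 2.3.3, scipy 1.17.1 and matplotlib 3.10.9 were used.

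The peaks and the comparisons were chosen with earlier results of these data known. Named regions were the 20 highest peaks, the 5 clusters with most peaks, the 5 clusters of 3 or more with the largest summed height, the 5 peaks with most control tags, the 5 with the lowest focus ratio and the 5 with the highest score in the highest decile, the 5 highest with no partner and the 5 lowest with all 6; 3 peaks inside the largest cluster and the 38 highest chromosomal peaks were added after their values were seen. No hg19 genome or annotation was used here, so peaks carry no gene names and the intended gene lists, motif counts and sequences were not run.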

Additional observations from a re-analysis of the deposited data

How the results depend on the processing

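Of 60 alternative values for 15 results, 18 stayed within the counting interval, 42 moved and 0 reversed. Some of the 18 say little on stability. The limit on partner p-values left the differences of MTA2, Mi2 and OCAB identical, at 70.1, 24.6 and 17.3 points. Chromosomes 1 to 22 and X kept 99.9% of the peaks, which leaves medians little room to move. With peaks at least 8-fold over input, the median height was 26.1, the share of the highest 1% 10.7%, the score rho 0.980 and the median fold 19.18; with a clonal fold of at most 1 they were 24.9, 11.1%, 0.990 and 17.2, and the focus difference was 0.045. On chromosomes 1 to 22 and X the share of the highest 1% was 9.85%. The focus difference was 0.049 by deciles of fold and 0.047 within peaks with 3 input tags, an alternative chosen after seeing the data. Median control unscaled was 3.04 tags. Linking at 5000 bp gave 35.8% of peaks with a neighbour, 8.05% in clusters and a clustered to lone height ratio of 1.26; at 25000 bp the shares were 74.4% and 54.1%; with the higher 50% of peaks alone the values were 47.4%, 22.5% and 1.15. The partner differences follow in percentage points. With centres within 100 bp they were 39.0 (IKAROS), 68.0 (MTA2), 13.8 (Mi2), 46.2 (HDAC2), 30.8 (OCT2) and 12.7 (OCAB). With the 2000 highest partner peaks they were 49.6, 31.8, 12.9, 28.5, 21.1 and 9.53 in that order, and by fold deciles 14.8, 47.9, 20.2, 38.5, 30.6 and 13.3. With partner p-values of at most 1e-10 they were 31.1 for IKAROS and 45.4 for HDAC2, and within 3 input tags 29.0 for Mi2. The cause of these moves was not tested.

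No paired analysis was possible because each antibody had 1 library, so leaving out a replicate was not an option. Limits are the single library, the calling limits that bound low peaks, the input depth, which left a median of 3 input tags behind each fold, and partner lists of unequal length.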

Other observations

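AIOLOS peaks were dense on chromosomes 17, 19 and 22 and sparse on the X and Y chromosomes. Per Mb of the span that peaks cover, chromosome 19 held 31.9 peaks, chromosome 22 28.3 and chromosome 17 25.2. Chromosome 4 held 7.51, the X chromosome 5.09 and the Y chromosome, with 28 peaks in all, 0.498. On chromosome 19 the median height was 26.8 tags per 10 M and 46.4% of peaks were in clusters of 3 or more. On the X chromosome the median height of 774 peaks was 18.1, and 2.58% of peaks were in the highest decile. Input was lower there too, with a mean control of 1.58 tags on the deposited scale against 2.93 over the list. The median fold over input on X was higher, at 24.47 against 16.53 over the list. No input tag was found in 18.6% of X peaks, against 4.89% over the list. The part of the lower input in the fold was not tested. X peaks overlapped an IKAROS peak in 86.7% of cases, against 85.9% over the whole list. The other partners were found at lower shares on X than over the list: MTA2 at 45% against 51.8%, HDAC2 at 15.9% against 27.3%, OCT2 at 9.56% against 14.9%, Mi2 at 5.04% against 10.6% and OCAB at 2.71% against 6.18%. Since X peaks were low, the part of height in these shares was not tested.

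Deposited peak numbers had gaps. The highest peak number of each chromosome summed to 55147 for AIOLOS, against 38101 deposited peaks (69.1%).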
